A study of Mus musculus with 2 samples.

Results

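The Pcgf genes encode the Polycomb group RING finger proteins, and with Rybp and Yaf2 they define the forms of Polycomb repressive complex PRC1. The 8 genes Pcgf1, Pcgf2, Pcgf3, Bmi1, Pcgf5, Pcgf6, Rybp and Yaf2 were taken by symbol from a table of 16803 genes, and each symbol matched 1 row. Each of the 8 had enough reads (10 or more, summed over the libraries) to be tested. Total RNA was sequenced from NE4C cells, a mouse neural stem cell line established from the embryonic forebrain of p53-deficient animals. The control was 1 library from a normal culture, and the other group was 1 library from cells given HTL (homocysteine thiolactone), the reactive cyclic thioester of homocysteine. Both cultures were kept in Eagle MEM on a surface coated with poly-L-lysine, and the labels give neither the dose of HTL nor the duration. As each group is 1 library, replicate error could not be measured, and every test and interval covers counting error between these 2 libraries only. Pcgf1, Pcgf2, Pcgf3, Pcgf5 and Pcgf6 are also among the genes that the study itself picked, so their directions are no independent evidence.

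PRC1 places ubiquitin on histone H2A at lysine K119 through a RING-type E3 ligase, Ring1 or Rnf2, which pairs with a single Pcgf protein. The Pcgf protein sets the rest of the complex. Pcgf2 and Bmi1 (Pcgf4) form canonical PRC1 with Cbx and Phc proteins, which bind the H3K27me3 mark and compact chromatin. Pcgf1, Pcgf3, Pcgf5 and Pcgf6 form variant complexes, which carry Rybp or its homologue Yaf2 in place of a Cbx protein. In neural stem cells Bmi1 is known for sustaining self-renewal by repressing the Cdkn2a locus.

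The control library held 10350665 reads and the HTL treatment library 9102076. Of all genes, 13442 were tested, with a median log2 ratio of HTL treatment over control of -0.14. Scaling by TMM, the median of ratios or the upper quartile raised log2 ratios by 0.093 to 0.14. Nes, Vim, Sox2 and Msi1, which mark neural stem cells, stood at 25.1, 78.5, 34.7 and 38.7 FPKM (a level scaled to transcript length and library size) in control and at 24.1, 38.8, 12.6 and 39.5 FPKM in HTL-treated cells. Of the 8 neural stem cell markers, 7 had more than 3 reads in both libraries, and the exception was Fabp7, with 2 reads in each. Sox1, Sox2 and Dcx were called lower and Thy1 and Aldh1l1 higher, and Vim was called lower on column totals but not under any other scaling. The summed level of the neural stem cell markers was 192 FPKM in control and 136 FPKM in HTL-treated cells. The summed level of 6 neuronal markers was 22 and 28.7 FPKM, to which Tubb3 gave 16.3 and 24.8 FPKM, while Dcx, Map2, Syp and Snap25 had fewer reads in HTL-treated cells. The level of 3 fibroblast markers was 4.83 and 13.1 FPKM, to which Thy1 gave 4.42 and 12.1 FPKM. The 2 astrocyte markers in the table reached 0.72 and 1.98 FPKM together, and the 4 oligodendrocyte markers 3.97 and 4.44 FPKM. The astrocyte marker Gfap had 2 and 0 reads, and the oligodendrocyte markers Olig1 and Sox10 had at most 2 reads in either library. In bulk RNA, fewer cells of a kind and less RNA per cell cannot be told apart, and the part of these markers in the results below was not tested.

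The 8 genes lie on 6 chromosomes of the NCBIM37 (mm9) assembly. Pcgf1 lies at chr6:83028380-83030841 on the plus strand, Pcgf2 at chr11:97550137-97561811 on the minus strand and Pcgf3 at chr5:108890251-108935995 on the plus strand. Bmi1 lies at chr2:18598645-18608256 and Pcgf5 at chr19:36453557-36530682, both on the plus strand. Pcgf6 lies at chr19:47108109-47125380, Rybp at chr6:100178560-100237435 and Yaf2 at chr15:93114709-93167366, all on the minus strand. Their annotated exons overlapped those of no other gene on either strand. All 8 are protein-coding genes, and their deposited estimated counts were whole numbers. Their gene IDs in the table are 69837 (Pcgf1), 22658 (Pcgf2), 69587 (Pcgf3), 12151 (Bmi1), 76073 (Pcgf5), 71041 (Pcgf6), 56353 (Rybp) and 67057 (Yaf2).

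Promoter windows of 250 bases before an annotated start were at hand from RefSeq (GRCm38.p6) for 5 of the 8 genes, namely Bmi1, Pcgf2, Pcgf3, Pcgf5 and Pcgf6. The windows below are shown because Bmi1 and Pcgf2, the canonical members, both hold an E-box (CACGTG, the same on both strands, in capitals), while Pcgf3 and Pcgf5, which stood on opposite sides of 0, do not. The Bmi1 window is chr2:18676768-18677017 (plus strand), that of Pcgf2 chr11:97699649-97699898 (minus), that of Pcgf3 chr5:108461009-108461258 (plus) and that of the first of 3 starts of Pcgf5 chr19:36348079-36348328 (plus). These coordinates are not on the NCBIM37 assembly used above, so the Pcgf5 window printed here need not belong to the gene start given there.
Bmi1: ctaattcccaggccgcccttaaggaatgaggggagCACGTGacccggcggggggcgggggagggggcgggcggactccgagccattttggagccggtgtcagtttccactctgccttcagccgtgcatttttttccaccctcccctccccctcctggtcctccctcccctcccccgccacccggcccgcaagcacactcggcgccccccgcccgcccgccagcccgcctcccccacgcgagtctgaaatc
Pcgf2: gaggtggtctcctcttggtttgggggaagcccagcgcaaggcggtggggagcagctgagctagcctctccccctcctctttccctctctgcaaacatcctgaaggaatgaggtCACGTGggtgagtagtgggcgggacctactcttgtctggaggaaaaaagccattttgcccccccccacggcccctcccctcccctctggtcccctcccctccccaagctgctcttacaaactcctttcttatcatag
Pcgf3: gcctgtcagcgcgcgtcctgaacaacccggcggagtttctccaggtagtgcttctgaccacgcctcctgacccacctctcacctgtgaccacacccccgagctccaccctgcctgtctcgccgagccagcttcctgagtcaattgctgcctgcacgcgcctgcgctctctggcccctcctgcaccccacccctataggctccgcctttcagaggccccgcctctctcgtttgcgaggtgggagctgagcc
Pcgf5: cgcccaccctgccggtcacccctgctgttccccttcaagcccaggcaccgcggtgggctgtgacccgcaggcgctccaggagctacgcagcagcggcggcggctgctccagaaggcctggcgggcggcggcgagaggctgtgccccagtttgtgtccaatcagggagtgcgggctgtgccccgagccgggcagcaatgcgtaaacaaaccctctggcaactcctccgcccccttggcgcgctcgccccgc
The E-box began 215 bases before the start of Bmi1 and 137 bases before that of Pcgf2. It was in 6.02% of the 32851 promoter windows of this length, and it was searched for after these sequences had been seen. Neither the window of Pcgf6 nor any of the 3 windows of Pcgf5 held it. The cyclic AMP response element TGACGTCA (the same on both strands, in 1.55% of windows) was in no window of these genes. The 3 windows of Pcgf5 held 23, 4 and 28 CG dinucleotides, and those of Bmi1, Pcgf3 and Pcgf6 held 21, 16 and 14, against a median of 6 over all windows. The Pcgf2 window held 5. A match is a description of the letters only.

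The first comparison asked how the level of each gene differed between the HTL treatment and control libraries. Bmi1, Pcgf2, Pcgf3 and Pcgf6 fell and Rybp rose after HTL at an adjusted p of at most 0.001, while Pcgf1 was lower and Pcgf5 and Yaf2 were higher without reaching it. A gene was called when its log2 ratio was also 1 or more in size, and Bmi1 alone met both. Thus 1 of the 8 was called, where 10.8% of all genes tested were called, 7.98% as lower and 2.81% as higher. The share of members called was close to that background. At the adjusted p alone, 4 of the 8 were lower and 1 was higher, against 24.1% and 14.5% of all genes tested, shares not matched for read number. A log2 ratio below 0 was found for 5 of the 8 and for 58.7% of all genes tested. Adjusted p-values are from the two-sided exact binomial test on reads, with Benjamini-Hochberg adjustment over all 13442 genes.

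**Figure D1:**
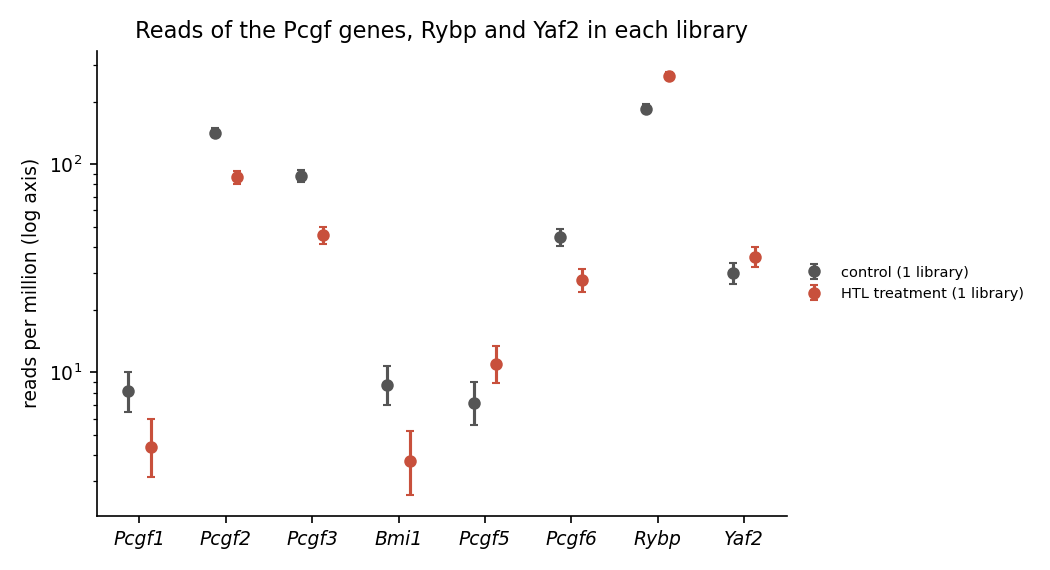
Level in CPM (reads scaled to the library total, log axis) of the 8 genes in the control and HTL treatment libraries, 1 library each; bars are exact Poisson 95% intervals of the reads. Of the 8 genes 5 sit lower after HTL, and Pcgf5, Rybp and Yaf2 sit higher, with Rybp going from 185 to 267 CPM.

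Among the canonical members, Bmi1 had 90 reads in control and 34 in HTL-treated cells, or 8.7 and 3.74 CPM. Its level was 43.3% of the control level, and its log2 ratio stood at -1.21 (exact Clopper-Pearson 95% interval -1.83 to -0.63; adjusted p = 3.98e-05, exact binomial test). The call rests on few reads, and the upper end of its interval lies short of the cutoff of -1. It was lost with FPKM + 1 (log2 ratio -0.74) and in edgeR's exact test with an assumed coefficient of variation between cultures of 0.1, 0.2 or 0.4 (adjusted p of 0.00458, 0.159 and 1). Pcgf2 (Mel18), its closest paralogue, was much more abundant, with 1467 reads in control and 790 in HTL-treated cells. It fell by 0.71 on the log2 scale (-0.83 to -0.58; adjusted p = 1.6e-28, exact binomial test). Both canonical genes were therefore lower in the HTL treatment library, and their log2 ratios differed by -0.50 (Bmi1 minus Pcgf2, -1.14 to 0.088), an interval that includes 0.

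Pcgf1 (Nspc1), the subunit that recruits Bcor and the CpG island reader Kdm2b, had 84 reads in control and 40 in HTL-treated cells. Its log2 ratio of -0.88 (-1.47 to -0.33) had an adjusted p of 0.00275 by the exact binomial test, short of 0.001. Pcgf6 (Mblr), which works with the DNA-binding proteins Mga, Max and E2f6 at germline genes, had 463 and 252 reads, and it fell by 0.69 on the log2 scale (-0.92 to -0.47; adjusted p = 2.66e-09, exact binomial test). Every one of Pcgf1, Pcgf2, Pcgf6 and Bmi1 had fewer reads after HTL, and their intervals overlapped.

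Pcgf3 and Pcgf5 are close paralogues that form like complexes with Auts2, Fbrs and casein kinase 2 and start the Polycomb silencing of the inactive X chromosome. Pcgf3 had 910 reads in control and 414 in HTL-treated cells, 51.8% of the control level. On the log2 scale it fell by 0.95 (-1.12 to -0.78; adjusted p = 2.84e-29, exact binomial test), short of the cutoff of -1. Pcgf5 had 74 reads in control and 100 in HTL-treated cells, 153% of the control level. The log2 ratio of Pcgf5 was 0.62 (0.17 to 1.07), with an adjusted p of 0.0104 by the exact binomial test. Its interval lies above 0, but it missed the adjusted p cutoff, also under each other scaling, where its log2 ratio was 0.71 to 0.75 and its adjusted p (exact binomial test) 0.00146 to 0.00313.

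Rybp and Yaf2 encode zinc finger proteins that occupy the same place in variant PRC1, where they stimulate the ligase and bind ubiquitinated H2A. Rybp had 1917 reads in control and 2428 in HTL-treated cells, which made it the gene with most reads of the 8 in both. It rose by 0.53 on the log2 scale (0.44 to 0.61; adjusted p = 7.29e-32, exact binomial test), to 144% of the control level. Yaf2 had 309 and 328 reads and stood at 0.27 on the log2 scale (0.043 to 0.50; adjusted p = 0.0354, exact binomial test). Under the median of ratios its log2 ratio was 0.41 and its adjusted p 0.000988 by the exact binomial test, so Yaf2 passed the adjusted p cutoff under that scaling, but not under TMM (0.00115) or the upper quartile (0.0034).

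**Figure D2:**
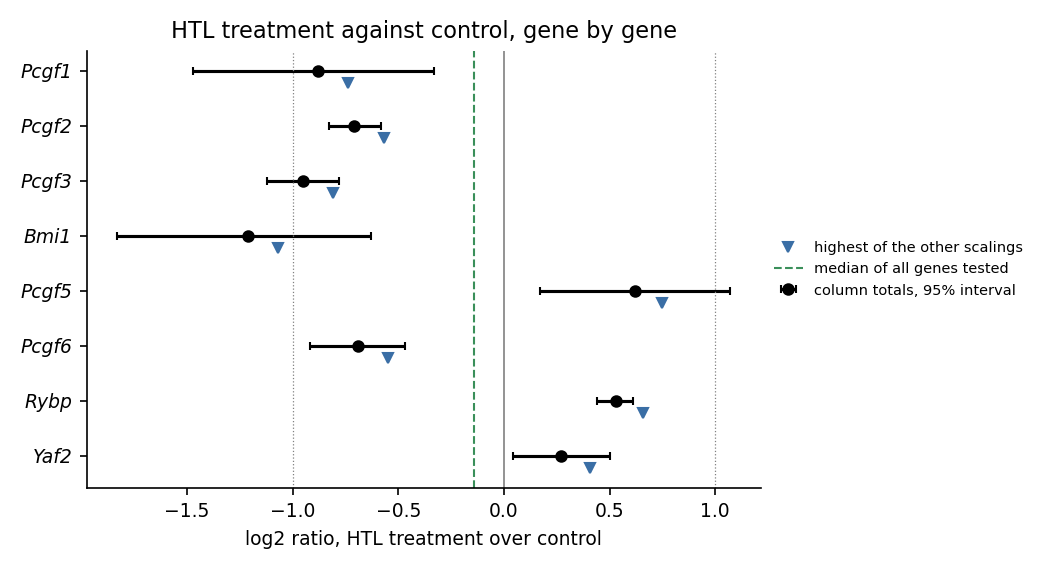
Log2 ratio of HTL treatment over control for each gene (points, with exact 95% counting intervals), with the highest value under the other scalings (triangles), the median of all genes tested (dashed line, -0.14) and the cutoffs of -1 and 1 (dotted lines). The intervals of Pcgf1, Pcgf2, Pcgf3, Bmi1 and Pcgf6 lie below 0 and those of Pcgf5, Rybp and Yaf2 above it.

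Longer transcripts had lower log2 ratios in this table, so each gene was also set against the genes of its own length bin (10 bins with equal numbers of genes). The median log2 ratio ran from 0.14 for the bin of Pcgf1 (908 bases) to -0.20 for the bin of Rybp (4376 bases). Relative to these medians Pcgf1 stood at -1.02, Bmi1 at -1.04, Pcgf3 at -0.78, Pcgf2 at -0.59 and Pcgf6 at -0.58. Pcgf5 stood at 0.64, Rybp at 0.73 and Yaf2 at 0.38. No gene of the 8 changed its direction.

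The second comparison set Pcgf5 against its paralogues through the ratio of their read ratios, from which the scaling of the libraries cancels. The opposite direction of Pcgf5 was known when this contrast was set, so it is given with counting intervals and no test. Summed over Pcgf1, Pcgf2, Pcgf3, Bmi1 and Pcgf6, reads went from 3014 in control to 1530 in HTL-treated cells, while those of Pcgf5 went from 74 to 100. Pcgf5 thus stood 2.66-fold higher relative to the other Pcgf genes in HTL-treated than in control cells (95% interval 1.94 to 3.67, exact conditional). Gene by gene the fold was 3.54 against Bmi1 (2.12 to 6.07), 2.96 against Pcgf3 (2.13 to 4.16) and 2.82 against Pcgf1 (1.71 to 4.74). It was 2.5 against Pcgf2 (1.81 to 3.48) and 2.47 against Pcgf6 (1.75 to 3.53). All 5 intervals share the values from 2.13 to 3.48.

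Relative to Rybp and Yaf2, Pcgf5 did not stand apart at this depth. The ratio of ratios was 1.06 against Rybp (0.777 to 1.47) and 1.27 against Yaf2 (0.896 to 1.81), and both intervals include 1. Rybp against Yaf2 gave 1.19 (1.01 to 1.41), an interval just above 1. Pcgf5 had the only log2 ratio above 0 among the 6 Pcgf genes, and Rybp and Yaf2 were above 0 as well.

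Levels per length gave the make-up of the family. In the control library the order by FPKM was Pcgf2 (58.8), Rybp (41.9), Pcgf3 (23.4), Pcgf6 (20.5), Yaf2 (13.2), Pcgf1 (9.15), Pcgf5 (4.77) and Bmi1 (2.4). The counting intervals of Pcgf3 (21.9 to 25 FPKM) and Pcgf6 (18.7 to 22.5 FPKM) overlapped, and no other neighbours in that order did. In the HTL treatment library the order was Rybp (60.3), Pcgf2 (36.2), Yaf2 (15.9), Pcgf6 (12.7), Pcgf3 (12.1), Pcgf5 (7.32), Pcgf1 (4.95) and Bmi1 (1.03). There the intervals of Yaf2 and Pcgf6 met at 14.3 FPKM, those of Pcgf6 and Pcgf3 overlapped, as did those of Pcgf5 (5.96 to 8.9 FPKM) and Pcgf1 (3.54 to 6.74 FPKM). Pcgf2 stood above 92.5% of all genes of the table in the control library, and Bmi1 above 42.4%.

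The summed level of the 6 Pcgf genes was 119.04 FPKM in control and 74.24 FPKM in HTL-treated cells. On reads, the sum went from 3088 to 1630, a log2 ratio of -0.74 (-0.82 to -0.65). Pcgf2 made up 49.4% of the summed Pcgf FPKM in control and 48.8% in HTL-treated cells, and Pcgf6 made up 17.2% and 17.1%. The share of Pcgf5 went from 4.01% (counting interval 3.15 to 5.02) to 9.86% (8.07 to 11.9). Pcgf3 went from 19.6% (18.6 to 20.7) to 16.3% (14.9 to 17.7), Bmi1 from 2.02% to 1.39% and Pcgf1 from 7.69% to 6.67%. Apart from Pcgf5 and Pcgf3, the counting intervals of a gene's share in both libraries overlapped.

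**Figure D3:**
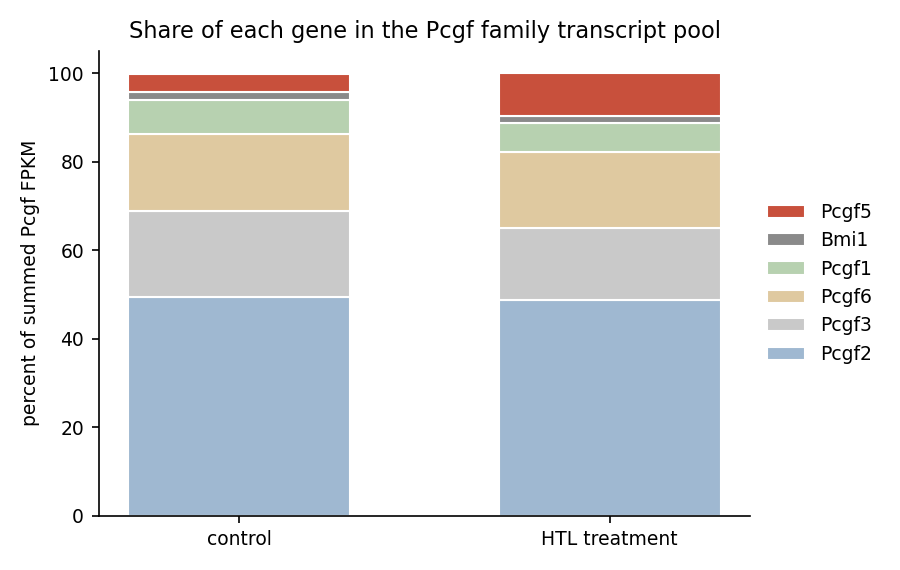
Share of each Pcgf gene in the summed FPKM of the 6 genes (percent), in the control and HTL treatment libraries. The Pcgf5 segment goes from 4.01% to 9.86%, and Pcgf2 holds 49.4% and 48.8%.

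Pcgf3 and Pcgf5 together held 23.7% of the summed Pcgf FPKM in control and 26.1% in HTL-treated cells. Within this pair, Pcgf3 stood 4.9 times as high as Pcgf5 in FPKM in control and 1.65 times as high in HTL-treated cells. Within the canonical pair, Pcgf2 stood 24.5 times as high as Bmi1 in control and 35.2 times as high in HTL-treated cells. Rybp and Yaf2 together reached 55.1 FPKM in control and 76.2 FPKM in HTL-treated cells. Their sum relative to that of the Pcgf genes was 0.463 in control and 1.03 in HTL-treated cells. These are transcript levels, and protein was not measured here.

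The partners of each complex were listed from known PRC1 biochemistry. Of 34 partner and E3 genes, all tested, 4 were called, 1 as higher and 3 as lower, a share close to the 10.8% called over all genes, with a median log2 ratio of -0.17 beside -0.14 over all genes. At the adjusted p alone, 9 were higher and 14 lower, where 14.5% and 24.1% of all genes tested were, and under each of the TMM, median of ratios and upper quartile scalings 11 were higher and 12 lower. These shares over all genes are also the background of the lists below. They are not matched for read number, on which passing the adjusted p depends. The E3 ligases differed in direction. Rnf2 (Ring1b), the main ligase of PRC1 in stem cells, had 735 reads in control and 1006 in HTL-treated cells and rose by 0.64 on the log2 scale (0.50 to 0.78; adjusted p = 5.02e-19, exact binomial test). Ring1 had 66 and 23 reads and fell, with a log2 ratio of -1.32 (-2.09 to -0.63, adjusted p = 0.000197, exact binomial test), which was called. That call rests on few reads, and the upper end of the interval lies short of the cutoff of -1. Under TMM and the median of ratios the adjusted p of Ring1 (exact binomial test) was 0.000975 and 0.000985, just within the cutoff. Ring1 and Rnf2 together went from 26.4 to 37.5 FPKM, while the summed Pcgf level went from 119.04 to 74.24 FPKM.

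Of the 5 partners of Pcgf1, none was called, 3 were lower and 1 was higher at the adjusted p, and Skp1a, 1 of the 3, did not pass under the other scalings. Kdm2b, the CpG island reader, had 2308 and 1023 reads and the lowest log2 ratio (-0.99, -1.10 to -0.88), and Bcor had 1501 and 1895 reads and the highest (0.52, 0.42 to 0.62). Exons of Kdm2b overlap A930024E05Rik and Orai1 on the opposite strand, and those of Bcor overlap 2900008C10Rik on the same strand. Whether the counting used strand is not given in the sources used here, so reads of Kdm2b are uncertain. Strand cannot tell Bcor from 2900008C10Rik, so reads of Bcor are uncertain as well. Of the 10 canonical partners, 5 had a log2 ratio above 0 and 5 below, with a median of -0.18 beside -0.14 over all genes. Among them, Cbx6 fell, with 634 and 197 reads (95% interval of the log2 ratio -1.74 to -1.27). Cbx7 fell as well, with 937 and 348 reads (log2 ratio -1.24, -1.43 to -1.06). Reads of Cbx6, which overlaps Npcd, were split between genes. Both encode chromodomain proteins that occupy the same place in canonical PRC1.

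Among the 7 partners of Pcgf3 and Pcgf5, none was called, 1 was higher and 2 were lower at the adjusted p (3 higher under the other scalings, with Csnk2a2 and Csnk2b), with a median of -0.032, which the other scalings move above 0. Auts2, which turns this complex toward activation in neurons, had 846 and 530 reads (log2 ratio -0.49, -0.65 to -0.33), and its homologue Fbrsl1 had 687 and 910 reads (0.59, 0.45 to 0.74). Some reads of Auts2 were split with other genes, and Fbrsl1 overlaps Gm17724 on the opposite strand. Of the 10 partners of Pcgf6, none was called, 5 were higher and 4 lower at the adjusted p, and Cbx1, 1 of the 4, did not pass under the other scalings. The heterochromatin protein gene Cbx3 had 2047 and 930 reads (-0.95, -1.07 to -0.84) and the deacetylase Hdac1 3049 and 4066 reads (0.60, 0.53 to 0.67). Each of these 4 partner lists held genes on both sides of 0.

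Bap1, with its Asxl cofactors, Usp16 and Mysm1 remove the ubiquitin that PRC1 places on H2A. Of these 6 genes, 5 were lower at the adjusted p, against 24.1% of all genes tested. Under TMM and the median of ratios 4 were lower, without Asxl1, and Bap1 was higher at the adjusted p, and centred on length Asxl1 stood above 0. The list median was -0.77 beside -0.14 over all genes. Asxl3 was called, with 94 reads in control and 14 in HTL-treated cells (log2 ratio -2.52, -3.49 to -1.74; adjusted p = 6.23e-13, exact binomial test). The reads of Bap1 itself were 1438 and 1332, and its log2 ratio was 0.075 (-0.034 to 0.18).

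**Figure D4:**
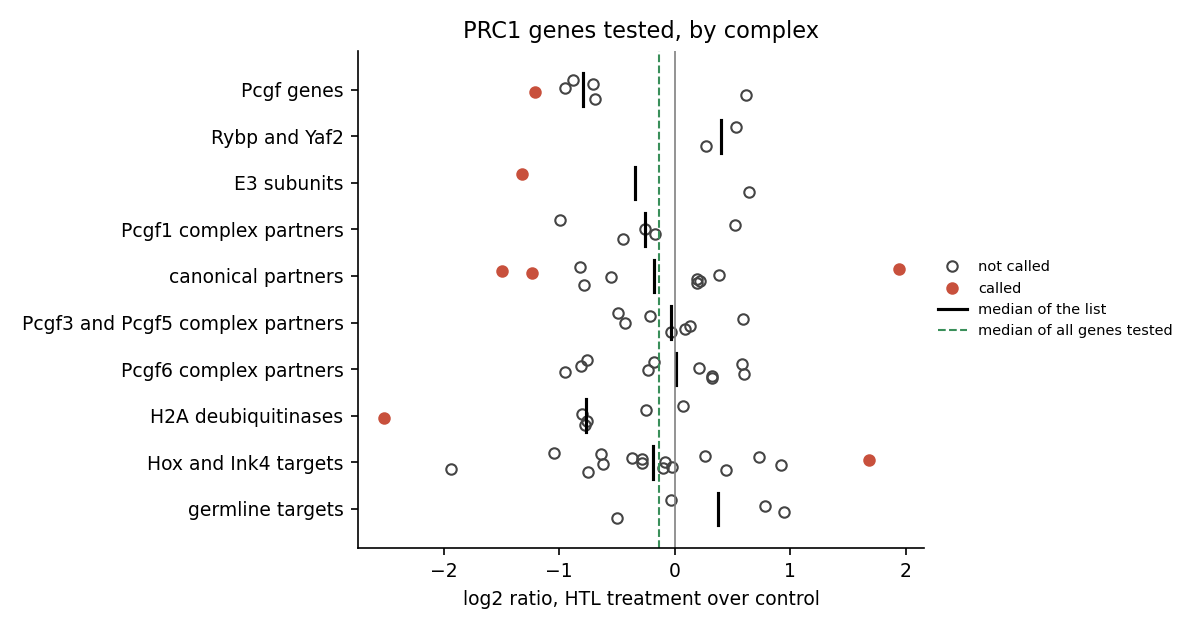
Log2 ratio of HTL treatment over control for each tested gene of the PRC1 lists; filled points were called, bars mark the median of a list and the dashed line the median of all genes tested (-0.14). The Pcgf genes centre on -0.79 with Pcgf5 at 0.62, and the partner lists hold genes on both sides of 0.

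Known targets of PRC1 were looked at last. Of the 28 Hox genes in the table, 14 had enough reads to be tested, and the 28 together had 777 reads in control and 863 in HTL-treated cells, or 709 and 671 without Hoxb9. Of the 14 tested, 10 had a log2 ratio below 0 on column totals, beside 58.7% of all genes, and 7 or 8 did so under the other scalings. The median was -0.19 beside -0.14 over all genes. Hoxb9 was the only one called, with 68 and 192 reads (log2 ratio 1.68, 1.28 to 2.10; adjusted p = 8.15e-18, exact binomial test), and part of its reads was split with other genes. That is 1 of 14, where 10.8% of all genes tested were called. Among the 14 Hox genes tested, Hoxd8 had the lowest log2 ratio, -1.94 (-4.08 to -0.47; 19 and 4 reads; adjusted p = 0.0114, exact binomial test). Cdkn2a, the Ink4a/Arf locus that Bmi1 represses, stood at 76 and 91 reads, with a log2 ratio of 0.44 (-0.01 to 0.90; adjusted p = 0.0866, exact binomial test), an interval that includes 0 on column totals. Under the other scalings its log2 ratio was 0.54 to 0.58 with intervals above 0, and its adjusted p (exact binomial test) of 0.02 to 0.0362 did not reach the cutoff.

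Of 12 germline genes known as targets of the Pcgf6 complex, 6 were in the table and 4 had enough reads to be tested. None was called on column totals, but Zcwpw1 was called under each other scaling (log2 ratio 1.04 to 1.09). On column totals Zcwpw1 rose, with 105 and 179 reads (log2 ratio 0.95, 0.60 to 1.32; adjusted p = 2.02e-07, exact binomial test), and Tdrkh fell, with 611 and 380 reads (-0.50, -0.69 to -0.31; adjusted p = 4e-07, exact binomial test). Zcwpw1 overlaps Pilra on the opposite strand. Ddx4, a marker of the germline, had 1 read in control and 0 in HTL-treated cells, which allows up to 3 reads (0.33 CPM).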

How the data were processed

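NE4C RNA was sequenced in 1 control and 1 HTL treatment library, grouped by sample title. The authors aligned cleaned reads to mouse (mm9 per the submitters' processing notes) and estimated counts per gene with RSEM; mapper, annotation and use of strand are not given in the sources used here. The authors deposited estimated counts, which are not normalized, and FPKM, which are scaled to transcript length and library size with a lowest value of 0.01. The deposited log2 ratio, p-value and FDR are the authors' own comparison and were not used.

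Estimated counts were rounded to whole numbers. Genes with 10 reads or more, summed over the libraries, were given the two-sided exact binomial test against column totals, with Benjamini-Hochberg adjustment over all of them (scipy 1.17.1). Calls used the study's cutoffs, an adjusted p up to 0.001 and a log2 ratio of 1 or more in size, with 0.5 read (scaled to the totals) added for the ratio. Intervals are exact (Clopper-Pearson, Poisson or conditional odds ratio) and, as reads lack molecular identifiers, cover counting error only. Such tests compare 2 libraries, not the conditions. Neither DESeq2 nor edgeR's quasi-likelihood model could be fitted to single libraries; edgeR 4.0.16 gave TMM and upper quartile factors and an exact test with an assumed coefficient of variation, and DESeq2 1.42.0 the median of ratios. The tests were checked on simulated counts that held counting error only, so that check has no bearing on variation between cultures. Coordinates and overlaps came from GENCODE M1 (NCBIM37). All 8 members are named; from each other list, the called genes and those with the highest and lowest log2 ratio are, and Cdkn2a and Ddx4 were added after their values were seen; 1 gene that this rule names is not reported here. The members and lists were chosen with earlier results of these data known.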

Additional observations from a re-analysis of the deposited data

How the results depend on the processing

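No paired analysis was possible because control and HTL treatment had 1 library each, so leaving one out was not possible either. The direction of each of the 8 genes was the same under TMM, the median of ratios, the upper quartile, 5 reads added, FPKM + 1, centring on length and totals without the 10 most abundant genes, the last chosen after seeing the data. Read filters and assumed coefficients of variation leave a log2 ratio as it is and cannot bear on direction. Added reads and FPKM + 1 only pull a log2 ratio toward 0, so they cannot reverse it either. TMM, the median of ratios and the upper quartile raise all log2 ratios by 0.093 to 0.14, so they could turn no gene that stood above 0. The number of members called, 1 (Bmi1), became 5 with the adjusted p cutoff alone. It became 0 with FPKM + 1, where the log2 ratio of Bmi1 was -0.74, and 0 in edgeR's exact test with an assumed coefficient of variation of 0.1, 0.2 or 0.4, where the adjusted p of Bmi1 was 0.00458, 0.159 and 1. At 0.1, Pcgf3 was the 1 member with an adjusted p (edgeR's exact test) of at most 0.001, at 0.000257, and Pcgf5 had 0.128; at 0.2 and 0.4 there was none. Which members pass thus depends on the spread assumed between cultures, which was not measured.

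The 1450 genes called (73.9% lower) became 816 with FPKM + 1, 5195 with the adjusted p alone, 2280 with the log2 cutoff alone, and, in edgeR's exact test, 120 (coefficient 0.2) and 6 (coefficient 0.4). Under TMM 1352 genes were called (59.2% lower), under the median of ratios 1347 (58.5%), under the upper quartile 1358 (63.3%) and centred on length 1288 (60.2%). The 6 calls in the PRC1 lists were 7 under TMM, the median of ratios, the upper quartile and centred on length. They became 31 with the adjusted p alone, 1 at 0.2 and 0 at 0.4. The log2 ratio of the summed Pcgf reads, -0.74, became -0.61 (TMM), -0.60 (median of ratios) and -0.64 (upper quartile), which raise all log2 ratios alike. No count moved by over 1.5 times under the remaining alternatives, and family shares from reads per kilobase stayed within their intervals. Depth limits Bmi1, Pcgf1 and Pcgf5 most, with 34 to 100 reads per library.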
